A study of Mus musculus with 2 samples.

Results

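Among 3875 putative binding sites of Zfp322a that were rebuilt from uniquely placed reads of mouse ES cells, 357 lay in annotated exons and away from transcription start sites (TSSs). Reads of mapping quality 25 or more were lengthened to 300 bp. Stretches where 9 or more of them overlap in the Zfp322a library were joined across gaps of up to 300 bp and called sites where this peak height was at least 3-fold over the IgG height in the stretch, an IgG height of 0 being counted as 1. Sites that touched the window from 1000 bp before to 100 bp after any annotated TSS were left out, and of the rest those whose middle fell in an exon were kept. The sites were thus selected on the height and the fold of these same libraries, so both are given below as a description with no test. Of 7404 stretches of at least 9 reads in the genome, 52.3% reached 3-fold, and of the 675 exonic stretches outside TSS windows the 357 sites were 52.9%.

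The study asked where Zfp322a is bound in the genome of undifferentiated ES cells. Chromatin of untreated E14 cells, a mouse ES cell line kept in serum and LIF and given in the labels with a C57BL/6 background, was precipitated with anti-ZNF322 antibody (the Zfp322a ChIP) or with anti-Rabbit IgG as the control. For each antibody 1 library was sequenced, so no value below has a replicate check and intervals cover counting error only. The Zfp322a library held 4151151 reads of sufficient mapping quality and the IgG library 3877802, a ratio of 1.07, and IgG heights were not scaled for it.

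Zfp322a is a C2H2 zinc-finger protein, a class of proteins that read DNA with arrays of small zinc-bound fingers, and many sequence-specific factors are found mainly at promoters and enhancers rather than in exons. Exons are on the whole richer in G and C than the introns around them. In ChIP-seq, fragments of open or GC-rich chromatin are recovered more readily even without a specific antibody, which is why heights are read against an IgG library.

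To show what DNA lies under such sites, 30 bases are printed for 2 of the named coding-exon sites that hold an exact match to motif 1 of the study, the most frequent motif it drew from its peaks. The bases were read from mm9, 5′ to 3′ on the strand of the match, and capitals mark the match.
L3mbtl3: ccttgcgctgGGAGCAGCAGagcaagcttc
Zfp865: cttcggcggtGCAGGAGCAGatcgtacgcg
The first is on the minus strand at chr10:25999800-25999829 and lies in an exon of *L3mbtl3*, 251 bp from the Zfp322a maximum of its site. The second is on the minus strand at chr7:4983109-4983138, against the direction of *Zfp865*, and 77 bp from the maximum. A match is a description of the sequence and not a site of contact.

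Exonic sites were low. Their median Zfp322a height was 9 reads, the lowest value allowed, with an upper quartile of 11 and a highest value of 32. IgG heights at the same sites had a median of 2 and ran from 0 to 6. The median fold was 4.5, with quartiles of 3.33 and 9 and a highest value of 13. A total of 186 sites (52.1%) had exactly 9 reads and 259 (72.5%) had 9 or 10. Just inside the limit of fold, 67 sites had a fold of exactly 3, and just outside it 50 exonic stretches had a fold of 2.5 to under 3. A further 292 exonic stretches of at least 3-fold had 8 reads and so were not sites. The sites were short, with a median length of 86 bp, and 38 of them were at most 10 bp long.

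**Figure D1:**
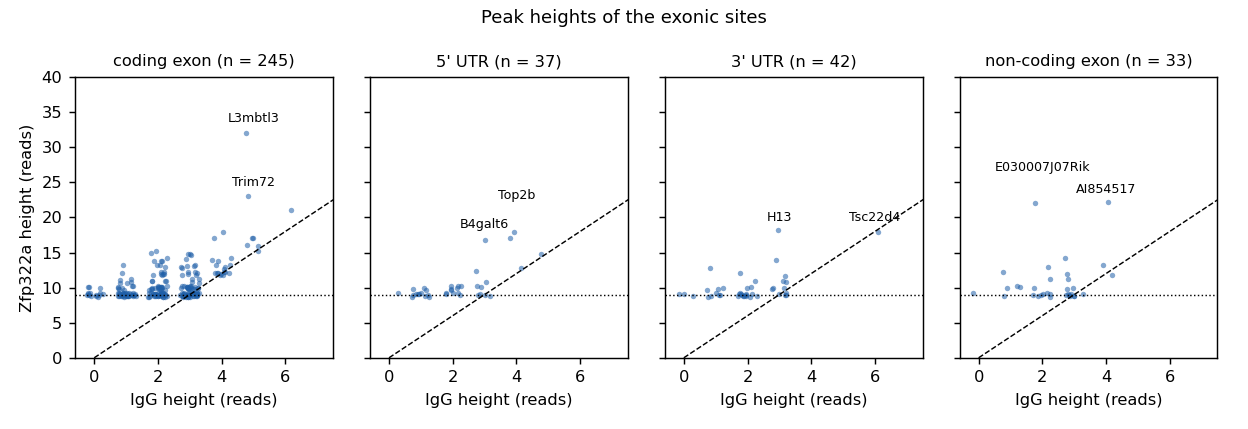
Zfp322a peak height against IgG peak height, both in extended reads, for the 357 exonic sites by class of exon. Each point is 1 site, moved by up to 0.3 reads at random so that sites of equal height can be seen; the dotted line is the height of 9 reads and the dashed line is 3-fold, the limits that chose the sites. Most points lie on or just above these lines, and *L3mbtl3* stands highest with 32 reads.

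Heights of 15 reads or more were found at 23 exonic sites, 6.44% (Clopper-Pearson 95% interval 4.13 to 9.51%, as for all shares below). The same share was 6.50% of the 739 intronic sites, 8.02% of the 536 intergenic sites and 22.2% of the 2243 sites at a TSS. These shares describe heights that the limits chose, and a tall, long stretch is more likely to touch a TSS window and so to leave the exonic set. Reads of a site were also counted as all extended reads that overlap it, in place of the maximum. The 357 sites held 4405 Zfp322a and 931 IgG reads in this sense, 4.42 times as many per library read. At 164 of the 337 sites with an IgG read, the lower bound of the fold per read was not above 1. At the other 173 it was above 1. The same reads chose the sites and no adjustment was made, so these counts are no test of enrichment. The remaining 20 sites had no IgG read.

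Coding exons held 245 of the 357 sites (68.6%, interval 63.5 to 73.4%). The highest was in *L3mbtl3*, which encodes an MBT-domain protein that binds methylated lysines, where exon 20 of 22 carried 32 Zfp322a reads against 5 IgG reads (chr10:25999796-26000338). The site held 44 Zfp322a and 5 IgG reads. Divided by the library totals, the fold per read was 8.22, and its 95% interval, from the exact conditional binomial distribution as for all folds per read, ran from 3.27 to 26.6. It lies 33869 bp from the nearest TSS, that of *L3mbtl3* itself. Within 1000 bp of its middle, 43 of 46 Zfp322a reads lay inside the exon that runs from 25999744 to 26000219, although exons made up 27.0% of these bases. No Zfp322a read crossed an exon edge there. The reads inside the exon spanned 25999797 to 26000214, 20 of them forward and 23 reverse. Whether they come from this place in the genome or from a spliced or copied form of the exon was not tested, and the height and fold of this site hold with that limit.

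To compare other sites with few exonic bases around them, the same share was taken where exons are sparse. At 167 sites exons covered under 1000 of the 2000 bases around the middle, and there the median share of Zfp322a reads inside exons was 37.9%. At 2 of the 167, *L3mbtl3* with 93.5% and *Rax*, at least 90% of the reads were inside exons; these 2 were singled out after their values were seen.

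Next in height came *Trim72*, a muscle protein of membrane repair, with 23 reads against 5 in its last coding exon (chr7:135153375-135154083, fold per read 4.20, interval 2.09 to 9.35). The last exon of *Zfp324*, which encodes a zinc-finger protein, had 21 reads against 6 over 1087 bp (chr7:13556041-13557127), with 60 Zfp322a and 12 IgG extended reads overlapping the site. This was the longest exonic site. *Loxl1*, an enzyme that crosslinks elastin, had 18 reads against 4 (chr9:58159364-58159757), and *Synpo*, an actin-binding protein, had 17 against 4 (chr18:60761771-60762243). *Mib2*, a ubiquitin ligase of Notch ligands, and *Rinl*, a regulator of Rab proteins, each had 17 against 5, at chr4:155028655-155029121 and chr7:29581587-29582028. *Scrt2*, a zinc-finger repressor of the Snail family, had 16 against 5 (chr2:151919143-151919488), and its fold per read of 1.77 had an interval from 0.79 to 4.27. A site in *Shroom3* had the same heights as *Scrt2*. The 8 named coding sites stood at 16 to 32 reads over IgG heights of 4 to 6, and their folds per read rest on the reads that chose them.

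**Figure D2:**
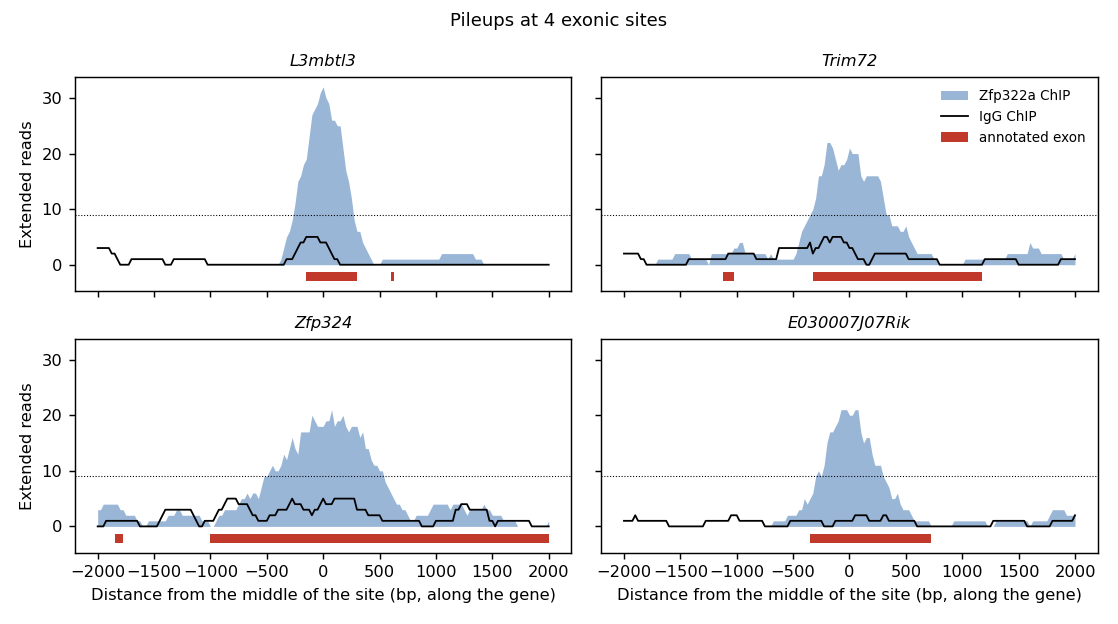
Pileups of extended reads at the 3 highest coding-exon sites and at the highest non-coding-exon site, by distance from the middle of the site in the direction of the gene. The blue area is the Zfp322a ChIP, the black line the IgG ChIP, the dotted line the height of 9 reads and the red bars are annotated exons. The *L3mbtl3* pileup reaches 32 reads over an exon of 476 bp and the *Zfp324* pileup is broad inside a long last exon.

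The 5′ UTR sites numbered 37 (10.4%), and 36 of them lay within 1000 bp after a TSS. The highest was in *Top2b*, a DNA topoisomerase, with 18 Zfp322a reads against 4 IgG reads, 413 bp after the TSS (chr14:17197880-17198332). *B4galt6*, an enzyme of lactosylceramide synthesis, had 17 against 3 at chr18:20904024-20904445, and *Ptpn9*, a tyrosine phosphatase, had 17 against 4 at chr9:56843098-56843566. *Tmem115*, a Golgi membrane protein, had 15 against 5 (chr9:107436425-107436742), and *Whsc1l1*, a histone methyltransferase, had 13 against 4 (chr8:26712936-26713295). All 5 of these sites are in first exons, 308 to 670 bp from the TSS of their own gene. *Whsc1l1* is the only one of the 5 that also had a site at its own TSS.

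The 3′ UTR sites numbered 42 (11.8%), 36 of them in last exons. *H13*, the signal peptide peptidase, had 18 reads against 3 (chr2:152531680-152532110, fold per read 6.07, interval 2.11 to 23.9). *Tsc22d4*, a leucine-zipper protein, had 18 against 6 (chr5:138201007-138201528), a fold of exactly 3. *Cldn19*, a claudin of tight junctions, had 14 against 3 at chr4:118932126-118932355. The gene 5330437I02Rik had 13 against 1 at chr18:65909807-65909973, a fold that only *Cdk13* equalled among exonic sites, though its IgG count of 1 read leaves the fold per read between 1.82 and 516. *Selplg*, the ligand of P-selectin, had 12 against 2 at chr5:114268833-114269091.

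Exons with no coding annotation held 33 sites (9.24%), and 12 of the 357 sites were in genes of the lincRNA type. Both highest sites of this class were in lincRNA genes. E030007J07Rik had 22 Zfp322a reads against 2 IgG reads in its last exon (chr19:40947532-40948138), and its fold per read was 8.87 (interval 3.20 to 34.2). AI854517 had 22 against 4 in its first exon, 420 bp after the TSS (chr7:86660229-86660846). *Flt3l*, a cytokine ligand, had 14 against 3 (chr7:52389867-52390145), *Wdr13*, a WD-repeat protein, had 13 against 2 (chrX:7709217-7709479), and *Eif3j*, a subunit of the eIF3 complex, had 13 against 4 (chr2:121854752-121854982). These last 3 are exons of non-coding transcripts of protein-coding genes. Protein-coding genes held 338 of the 357 sites in all.

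Each class of exon reached 3-fold at a rate near that of the genome. It was 245 of 476 stretches in coding exons (51.5%, interval 46.9 to 56%), 37 of 68 in 5′ UTRs (54.4%, 41.9 to 66.5%), 42 of 69 in 3′ UTRs (60.9%, 48.4 to 72.4%) and 33 of 62 in non-coding exons (53.2%, 40.1 to 66.0%). The 4 intervals all hold the 52.3% of all stretches. By chromosome the share was lowest on chromosome 8, with 16 of 46 exonic stretches (34.8%, interval 21.4 to 50.2%). Chromosome 8 as a whole had 0.760 Zfp322a reads per IgG read after division by library totals, the lowest value among the autosomes, and the X chromosome had 1.32 with 5 of 7 exonic stretches at 3-fold. With IgG heights scaled by the totals of each chromosome, a setting added after seeing the data, 285 exonic sites remained in number.

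The IgG library had piles of its own in exons. Exonic regions outside TSS windows made up 9.21% of the Zfp322a sites (interval 8.32 to 10.2%), 9.01% of the Zfp322a stretches that stayed under 3-fold and 13.9% of the 1384 IgG stretches of at least 9 reads (192 stretches, interval 12.1 to 15.8%). The exonic share was thus not higher among enriched sites than among piles of the control. When the libraries were exchanged, 46 exonic stretches met the same limits for IgG over Zfp322a, against 357 the other way. At a height of at least 11 reads the numbers were 98 and 4, and at 15 reads 23 and 1. The highest site with the libraries exchanged had 46 reads, above every exonic Zfp322a site.

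**Figure D3:**
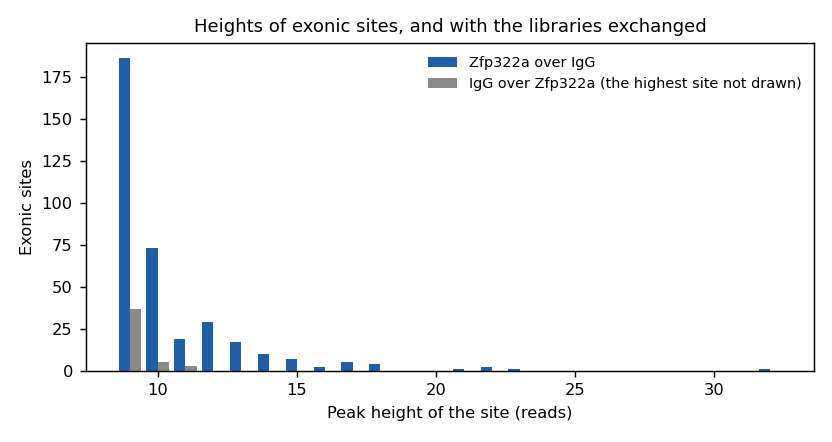
Number of exonic sites at each peak height in reads, for Zfp322a over IgG (blue, 357 sites) and for IgG over Zfp322a with the same limits (grey, 46 sites, the one of 46 reads not drawn). Of the grey sites 37 have 9 reads and 42 have 9 or 10, while 98 blue sites have 11 or more.

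Exons are a small part of the genome, so their share of sites was set against their share of bases. Outside TSS windows exons made up 2.89% of bases and 21.9% of sites (interval 19.9 to 24.0%), and coding exons made up 1.24% of bases and 15.0% of sites. Among the IgG stretches outside TSS windows 24.5% were exonic (interval 21.5 to 27.6%), and among the Zfp322a stretches under 3-fold 26.4% (23.9 to 29.0%). With the libraries exchanged, where IgG sites meet the same limits of height and fold, it was 15.4% (11.5 to 20%). Exons were above their share of bases in every one of these sets, and the share was lower with the libraries exchanged than in the Zfp322a sites, with intervals that overlap slightly.

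Sites in exons gathered behind TSSs. A total of 156 sites (43.7%, interval 38.5 to 49.0%) had their middle within 1000 bp after a TSS, 112 within 500 bp and 69 within 300 bp, whereas 17.3% of exonic bases outside the windows lay within 1000 bp after a TSS. Of the 23 sites with 15 reads or more, 8 were within 1000 bp after a TSS and 15 were elsewhere. With stretches cut anew at a minimal height of 15 reads, the share was 73.4% of 64 sites. Such stretches are shorter, so some that touched a TSS window no longer do, and this is not a rise with height among the 357 sites. Over 17 alternatives the share within 1000 bp ran from 0%, where the TSS window ends at 1000 bp, to 73.4%. At the other end 121 sites (33.9%) were more than 3000 bp from any TSS and 41 more than 10000 bp. For 73 sites the nearest TSS belonged to another gene. Of the coding sites 100 of 245 (40.8%) were within 1000 bp after a TSS. Zfp322a stretches under 3-fold had the same placement in 42.1% of cases (interval 36.6 to 47.8%) and IgG stretches in 40.6% (33.6 to 47.9%), and these intervals overlap that of the sites. The 46 exonic IgG sites with the libraries exchanged had it in 26.1% (14.3 to 41.1%). By place in the transcript, 100 sites were in first exons, 109 in internal exons, 121 in last exons and 27 in genes of a single exon.

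Fragments around the sites were counted for both libraries, although the limit of 9 overlapping reads by itself requires a narrow Zfp322a maximum. Per site and 100 bp there were 3.22 Zfp322a fragments in the 100 bp on each side of the middle, 0.943 at 300 to 500 bp and 0.473 at 2000 to 2500 bp. The IgG library had 0.588, 0.637 and 0.372 at the same distances, so it too was denser near the sites than far from them. The limit on fold also keeps IgG low at the middle itself. Forward reads lay before reverse reads at 355 of 357 sites and 335 (93.8%) passed the Mann-Whitney test of strand separation at 0.05, but extended reads that overlap at a point have this order by construction, and 92.7% of all sites passed as well.

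**Figure D4:**
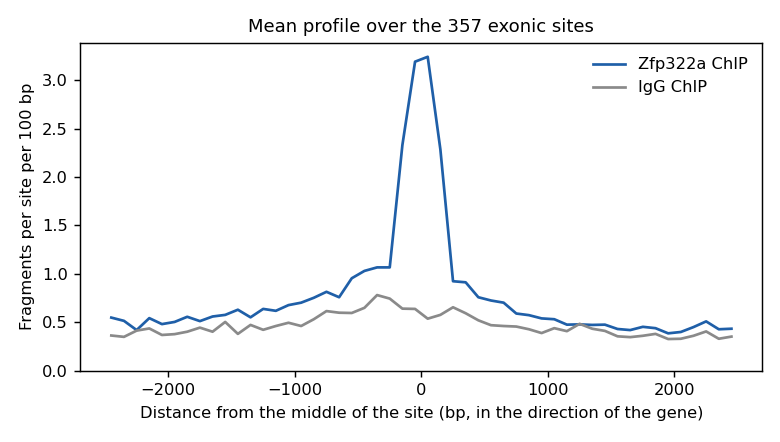
Mean number of fragments per site in bins of 100 bp, by distance from the middle of the site in the direction of the gene, over the 357 exonic sites, for Zfp322a (blue) and IgG (grey). The Zfp322a line reaches 3.24 fragments in the middle and the IgG line stays under 1 throughout.

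Reads were also placed with respect to exon edges, although a pile of Zfp322a reads with its middle in an exon was what chose the sites, so that a higher Zfp322a share inside exons follows from the choice. Within 1000 bp of the middle of the 357 sites, 63.7% of Zfp322a reads lay inside exons, 5.76% crossed an exon edge and 30.6% lay outside, where 52.3% of the bases were exonic. In the IgG library the shares were 56.9%, 5.31% and 37.8%. A total of 215 sites had a Zfp322a read across an exon edge and 307 had one outside exons, and 45 had neither. Of these 45, 20 were in coding exons and 17 in 3′ UTRs, where exons are long.

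Reads that the rule did not use gave no separate measure of enrichment. Extended reads with a mapping quality under 25 that overlapped the 357 sites numbered 25 in the Zfp322a library, at 14 sites, and 27 in the IgG library, at 9 sites. Their ratio per library read was 0.863 (interval 0.480 to 1.54), so a difference was not detectable at this depth.

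The sequence under the sites was GC-rich. Over the sites themselves the median GC content was 63.5%. In the 300 bp around the Zfp322a maximum it was 62%, with quartiles of 57.3% and 67%, against 49% in the 300 bp around the middle of 184688 coding exons outside TSS windows (quartiles 42% and 55.3%). Where a coding exon is shorter than 300 bp, its window also holds bases beside the exon, here and for the motifs below. Intronic sites had a median of 56.7%, intergenic sites 55.7% and sites at a TSS 64.3%. Among the classes, sites in 5′ UTRs had the highest median, 66%, coding exons had 62.7%, 3′ UTRs 57.7% and non-coding exons 57%. Exonic sites within 1000 bp after a TSS had 65.8% and those elsewhere 59.7%, so the sites far from TSSs were also above the median of coding exons. The ratio of observed to expected CpG had a median of 0.581 at the sites and 0.290 in coding exons. Exonic Zfp322a stretches under 3-fold had a median GC content of 62% and exonic IgG stretches 62.2%, so GC content did not set the enriched sites apart from the other piles of reads.

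Motif 1 was searched on both strands of mm9 with no mismatch, in a form read by eye from the logo of the study, so its shares depend on that reading; with 1 mismatch 55.7% of sites held it. The sites themselves held it in 54 cases (15.1%, interval 11.6 to 19.3%). This share was 7.37% at a minimal fold of 9 and 6.89% with stretches not joined. All 54 matches lay in the 264 sites of at least 30 bp, so shares over the sites themselves depend on how long the sites are. In the 300 bp around the maximum, motif 1 was found at 101 sites (28.3%, 23.7 to 33.3%). It was found in 29.6% of exonic stretches under 3-fold (24.6 to 34.9%) and in 28.1% of exonic IgG stretches (21.9 to 35.1%). For coding exons, searched in the 300 bp around their middle, the share was 18.1%. Its share over the 300 bp was 33.5% at coding sites, 13.5% in 5′ UTRs, 23.8% in 3′ UTRs and 12.1% in non-coding exons. Intronic sites had it in 25.2% and intergenic sites in 24.1%. The share of coding sites was above that of coding exons, with an interval of 27.6 to 39.8%, while the intervals of the sites, the stretches under 3-fold and the IgG piles overlap; UTRs and non-coding exons of the genome were not searched.

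The core of motif 3 was read by eye from the logo in the same way, as ATGGCG, and taken on either strand. The authors describe the whole motif as highly similar to the motif of Oct4 and Sox2. ATGGCG was not compared with the Oct4 and Sox2 motif, so its shares are those of this short sequence alone. ATGGCG is not contained in motif 1. It was found in the 300 bp around the maximum at 62 sites (17.4%, interval 13.6 to 21.7%). It was found in 12.3% of exonic stretches under 3-fold (8.87 to 16.4%), in 12% of exonic IgG stretches (7.75 to 17.4%) and in 6.22% of coding exons. The intervals of the sites and of both kinds of other piles overlap. At sites within 1000 bp after a TSS the share was 23.1% (16.7 to 30.5%) and elsewhere it was 12.9% (8.63 to 18.4%). Sites at a TSS had it in 20.6%, intronic sites in 6.50% and intergenic sites in 8.58%. Because ATG also opens most coding sequences, the matches were set against annotated start codons, and at 6 of the 62 sites the match began at one. The same held at 3 of 39 exonic stretches under 3-fold with a match and at 4 of 23 exonic IgG stretches with a match.

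**Figure D5:**
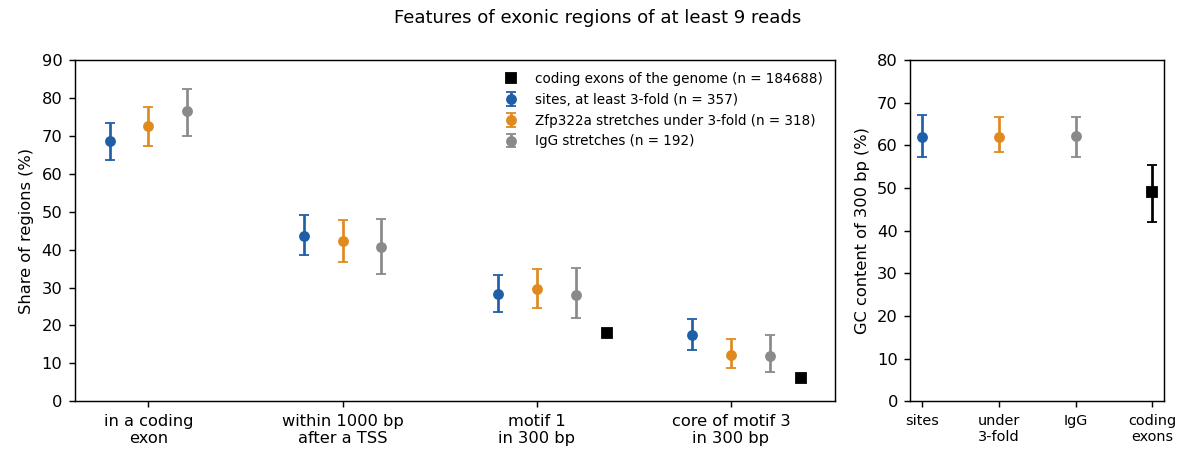
Left, share in percent of exonic regions of at least 9 reads that lie in a coding exon, lie within 1000 bp after a TSS, or hold motif 1 or the core of motif 3 in 300 bp, for the 357 sites (blue), 318 Zfp322a stretches under 3-fold (orange) and 192 IgG stretches (grey), with 95% intervals. Black squares are the 300 bp around the middle of 184688 coding exons. Right, median GC content of 300 bp with quartiles. The 3 kinds of piles overlap in every measure and lie above coding exons in GC content and motif 1.

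The 357 sites fell in 348 genes. Of these, 42 (12.1%, interval 8.84 to 16.0%) also had a site at one of their own TSSs, as did 13.7% of the 663 genes with an intronic site, 10.4% of protein-coding genes and 6.82% of all annotated genes. Of the named genes, *Tsc22d4*, *Whsc1l1*, *Eif3g* and *Rps19* were among the 42. The share of host genes is thus near that of protein-coding genes, which lies inside its interval, and it moved from 3.16% with a minimal fold of 9 to 31.2% with stretches not joined. In 9 genes there were 2 exonic sites each, namely A930038B10Rik, *Bai1*, *Carns1*, *Iffo1*, *Lyl1*, *Myo15*, *Shroom3*, *Tsc22d4* and *Wdr6*. In *Shroom3*, an actin-binding protein that shapes epithelial cells, the 2 sites had 16 and 9 Zfp322a reads against 5 and 1 IgG reads. In *Wdr6* they had 10 and 9 against 2 and 3.

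Gene families were compared by how many members held an exonic site, where 348 of 33887 gene names (1.03%) and 330 of 22225 protein-coding names (1.48%) did. The families are short lists of gene names and hold only part of the genes with each function. Numbered Zfp and related zinc-finger genes had 11 of 438 (2.51%). Their highest were *Zfp324* with 21 reads against 6, *Zfp865* with 13 against 4 and *Zbtb12* with 12 against 1, while *Zfp687* had 12 against 2. Pluripotency and reprogramming factors had 2 of 33 (6.06%), *Rest*, a repressor of neuronal genes, with 14 against 4 (chr5:77697459-77697758), and *Zscan10*, a zinc-finger factor of ES cells, with 9 against 3. The list of chromatin genes had 2 of 94 (2.13%), *Trim28*, the co-repressor of KRAB zinc-finger proteins, with 10 against 3, and the histone demethylase *Kdm6b* with 9 against 3. *Whsc1l1* and *L3mbtl3*, described above, were not on that list. Splicing and RNA-binding genes had 6 of 231 (2.60%), led by *Eif3g* and *Eif3j* with 13 reads each and *Eif2c1*, an Argonaute protein, with 10.

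Signalling genes of the MAPK, FGF, Wnt and TGF-beta pathways had 3 of 197 (1.52%). These were *Map3k6*, a kinase of the MAPK cascade, with 12 reads against 3, *Apc2*, a relative of the Wnt regulator APC, with 10 against 3, and the Wnt receptor *Fzd9* with 9 against 1. Histone genes had 2 of 89 (2.25%), *Hist2h4* with 10 against 1 and the linker histone *Hist1h1b* with 9 against 3. The list of replication and repair genes had 1 of 84 (1.19%), the Brca1 partner *Bard1*, with 9 against 1. Exonic sites also lay in *Rnf8*, a ubiquitin ligase of the response to DNA breaks, with 10 against 1, and in *Smc5*, a subunit of a complex that acts in DNA repair, with 9 against 1, and both genes, chosen after their values were seen, were not on that list. Ribosomal protein genes had 1 of 246 (0.407%), *Rps19*, with 11 against 2. None was found in 108 homeobox genes, 25 clustered protocadherin genes or 120 genes of RNA polymerases and general transcription. Apart from *Zfp324* and *Rest*, the named sites of these families had 9 to 13 reads. The shares of the lists rest on 0 to 11 genes each, and no test compared them with the share of all genes.

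Exons were also compared between the libraries away from every site, with 300 bp on each side of a site and all TSS windows left out, so that no read of a site entered. Coding exons held 127190 Zfp322a and 107179 IgG reads, a ratio per library read of 1.11 (interval 1.10 to 1.12). The ratio was 1.18 in 5′ UTRs, 1.06 in 3′ UTRs and 1.09 in non-coding exons, against 1.001 in introns and 0.943 outside genes. Over the autosomes the ratio ran from 0.842 to 1.27 in coding exons, from 0.763 to 1.15 in introns and from 0.718 to 1.09 outside genes, and on the X chromosome it was 1.49, 1.28 and 1.28. Chromosomes thus shift all classes, and coding exons were above introns at the lowest, the median and the highest autosome value. Leaving out sites removes places where Zfp322a is high and none where IgG is high, which lowers these ratios. In windows of 500 bp the ratio in coding exons was 0.854 below 40% GC and 1.05 at 40 to 45%, lay between 1.11 and 1.12 from 45 to 65% and was 1.17 at 65% or more. In introns it went from 0.805 below 40% to 1.25 at 65% or more. At 45 to 50% introns had 1.07 against 1.12 in coding exons. Introns were below coding exons in every range under 60% GC, level at 60 to 65% (1.12 in both) and above at 65% or more. Outside genes it went from 0.760 to 1.14 at 60 to 65% and was 1.09 above that. GC content moves with the ratio mainly at its low end in coding exons, and its part in the choice of sites was not tested.

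The regions that the authors deposited for Zfp322a, 754 intervals, overlapped 40 of the 357 sites by at least 1 bp (11.2%, interval 8.13 to 14.9%). These intervals are fewer than the sites the study counts, so the shares are not overlaps with its full list. For intronic sites the share was also 11.2%, for intergenic sites 2.99%, for sites at a TSS 25.3% and for all sites 18.2%. *L3mbtl3*, *Trim72*, *Zfp324*, *Synpo*, *Rinl*, *Top2b*, *B4galt6*, *Ptpn9*, *Whsc1l1*, *H13*, *Selplg* and *Zbtb12* were the 12 named sites in deposited regions, and both lincRNA sites of 22 reads lay outside them.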

How the data were processed

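Chromatin immunoprecipitation libraries of E14 cells, 1 with anti-ZNF322 antibody and 1 with IgG, were analysed from the reads that the authors mapped to mm9 and deposited with a mapping quality score for each read; the score is low where a read fits several places. The submitters' processing notes name CASAVA 1.4, BWA and Partek 6.6. The deposited reads were nearly all of 36 bp, and no pair shared start and strand. The deposited region lists give start positions of reads inside numbered regions and were used only for overlap.

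Sequences were read with samtools 1.23.1 and pysam 0.24.0. Pileups and tables were made in Python 3.11.15 (pandas 2.3.3, numpy 2.4.6), intervals with scipy 1.17.1 and figures with matplotlib 3.10.9. Exons, TSSs and start codons were taken from GENCODE vM1 on mm9, with 95458 transcripts of 37273 genes. A site in several kinds of exon was called coding first, then 5′ UTR, 3′ UTR and non-coding. Shares carry exact Clopper-Pearson intervals and read ratios exact conditional binomial intervals, and no test compares conditions. The scripts were tested on simulated data.

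The sites, the 11 gene lists and the measures were chosen with earlier results of these data known. Genes named are those of the 8 coding sites and the 5 sites of each other class with the highest Zfp322a height, and the 3 highest sites of each gene list, with ties broken by the higher fold and then by chromosome and start. Alternatives were other mapping qualities, heights, folds, fragment lengths, joining, scaling, TSS windows, exon annotations and motif settings. Sequences were considered for named sites outside chromosome 18 whose 30 bases all lie in a coding exon, and not every one is reported here. The microarray and other experiments of the study were not analysed here.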

Additional observations from a re-analysis of the deposited data

How the results depend on the processing

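Of the exonic sites 72.5% have 9 or 10 reads, close to the limit. With the values of the report in brackets, the alternatives moved them as follows. Stretches cut anew at a minimal height of 11 reads gave 158 sites (357) with a median height of 12 (9) and fold of 4.67 (4.5). Their exonic share was 7.86% (9.21%), and 53.2% lay within 1000 bp after a TSS (43.7%). Of their host genes 5.70% had a site at their own TSS (12.1%), and the median GC content was 64.6% (63.5%). A cut at 15 reads gave 64 sites with a median height of 16 and fold of 5, and 73.4% lay within 1000 bp after a TSS. Own-TSS sites were found in 6.25% of host genes. The median GC content was 67.6%, with 54.7% in coding exons (68.6%) and motif 1 in 10.9% (15.1%). A higher limit shortens each stretch, so some that touched a TSS window no longer do. Of the 357 sites, 98 have 11 reads or more and 23 have 15 or more. The sites of these 2 settings are thus not simply the tallest of the 357, and their values describe largely different sets. A minimal fold of 2 gave a median fold of 3.33 and own-TSS sites in 18.2% of host genes. A minimal fold of 5 left 153 sites with a median fold of 9 and own-TSS sites in 5.88%. A minimal fold of 9 left 95 sites with a median fold of 9, an exonic share of 10.7%, own-TSS sites in 3.16%, a GC content of 60.7% and motif 1 in 7.37%.

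Reads extended to 200 bp gave 233 sites, 63.1% of them coding and 54.5% within 1000 bp after a TSS, with a GC content of 65.3%. Stretches not joined numbered 885, with an exonic share of 11.1%, 60.7% within 1000 bp after a TSS, own-TSS sites in 31.2%, a GC content of 65% and motif 1 in 6.89%. All mapped reads gave an exonic share of 7.67%. IgG heights scaled by library totals gave a median fold of 4.67 and own-TSS sites in 8.74%, and scaled by chromosome totals 5 and 8.51%. TSS windows that end at 1000 bp left 199 sites, an exonic share of 5.14%, by construction 0% within 1000 bp after a TSS, and a GC content of 61.5%. TSS windows of protein-coding transcripts alone gave an exonic share of 11.5%, 63.5% coding, 50.9% within 1000 bp after a TSS and own-TSS sites in 26.7%. Exons of protein-coding transcripts alone gave 75.9% coding. Motif 1 was found in 55.7% of sites with 1 mismatch and in 28.3% when searched in the 300 bp around the maximum. Sites of at least 30 bp gave an exonic share of 8.26% and motif 1 in 20.5%. This setting and the scaling by chromosome were added after seeing the data. Placement by the maximum, a mapping quality of 1 and the strand test moved no measure outside its interval in the report, or the number of sites by more than 1.5 times. Except where given, the cause of a move was not tested.

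No paired analysis was possible because each antibody has 1 library and no test compares the libraries. The median exonic site held 10 Zfp322a and 2 IgG reads, which limits the precision of any single fold.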
